A study of Mus musculus with 15 samples.

Results

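The immunoglobulin heavy-chain variable (Ighv) segments were followed in islet RNA from NOD females over 5 ages. The segments were taken as every gene of the count table whose name starts with Ighv, which gave 185 of 48709 genes, a rule that uses no expression value. The samples were 15 NOD/ShiLtJ females, aged 4, 6, 8, 10 or 12 weeks with 3 mice at each age. Each library was taken as 1 mouse, and no treatment is given for any of the mice. NOD females develop an autoimmune infiltrate of the islets (insulitis), and all groups shared this genetic background, with no other strain among the samples used here. Islets were freed with collagenase, separated on a density gradient and hand-picked, so any immune cell attached to an islet entered the RNA, which was enriched for polyadenylated transcripts and sequenced in bulk.

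A heavy-chain variable exon is assembled in each developing B cell by joining 1 V segment to a D and a J segment, and the RNA of that cell then carries the chosen V segment spliced to a constant region. The V segment supplies most of the antigen-contacting domain, so reads on it tell which segments the B cells and plasma cells of a tissue use. Plasma cells, the antibody-secreting end stage, hold far more of this RNA per cell than resting B cells, and in bulk RNA more cells of a type cannot be told apart from more RNA per cell.

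All 185 genes lay on chromosome 12 between positions 113572927 and 116010093 of GRCm38, in the GENCODE annotation, which lists 113 of them as functional V genes, 70 as V pseudogenes and 2 as IG_LV genes. Over the 15 mice the segments held 84928 counts. Of the 185 genes, 120 had a count in at least 1 mouse, 65 were at 0 in all, and 76 passed the filter on low counts and were tested. The 44 genes that were counted but not tested held 1.21% of the counts. The 113 functional genes took 99.93% of the counts with all but 8 of them detected, and the 70 pseudogenes took 59 counts (0.0695%) with 15 detected. Neither IG_LV gene had a count, and a count of 0 over all mice allows a share of up to 0.00353% of the Ighv counts. The functional genes Ighv5-12-4, Ighv7-2, Ighv16-1, Ighv1-16, Ighv1-24, Ighv1-62-1, Ighv8-9 and Ighv8-13 were at 0 in every mouse.

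Ighv4-1 and the pseudogene Ighv4-2 show how far reads on a functional segment were kept apart from those on a near copy. Their V exons had the same length of 307 bases and differed at 13 of them. The last 300 bases of each exon (chr12:113948282-113948581 and chr12:114013144-114013443, GRCm38, minus strand) are written 5′ to 3′ along the transcript, with the 13 differing bases in capitals.

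Ighv4-1: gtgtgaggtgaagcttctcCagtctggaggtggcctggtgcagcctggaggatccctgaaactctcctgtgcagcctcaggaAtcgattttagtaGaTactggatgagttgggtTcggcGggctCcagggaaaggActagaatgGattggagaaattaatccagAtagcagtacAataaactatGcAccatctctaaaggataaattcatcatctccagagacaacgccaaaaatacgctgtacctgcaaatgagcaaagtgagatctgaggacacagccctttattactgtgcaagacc

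Ighv4-2: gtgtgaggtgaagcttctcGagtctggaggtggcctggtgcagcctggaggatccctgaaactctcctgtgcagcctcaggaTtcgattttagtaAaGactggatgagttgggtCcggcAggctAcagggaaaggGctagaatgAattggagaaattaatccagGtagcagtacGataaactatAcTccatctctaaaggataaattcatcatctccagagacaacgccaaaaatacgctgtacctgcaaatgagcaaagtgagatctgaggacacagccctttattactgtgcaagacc

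Ighv4-1 held 8440 counts and Ighv4-2 held 6. The 5 pseudogenes that were at least 95% identical to a functional segment held 7 counts together, against 21629 on their nearest functional segments. In 175 of the 185 segments every 150-base window of the transcript was unique among the segments, and these 175 took 88.24% of the counts. Ighv1-72 was less certain, with 71.3% of its windows unique and 99.02% identity to Ighv1-62-3, which had 22 counts against its 1802. The annotation follows the reference genome and not the NOD genome, and what a difference between them does to the counts was not tested.

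Another pair of near copies, Ighv1-42 and Ighv1-43 (last 300 bases of the V exon, chr12:114937113-114937412 and chr12:114945950-114946249, GRCm38, minus strand), is shown because each was abundant in a different mouse. Of the 305 bases of these exons 9 differ, and they are in capitals.

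Ighv1-42: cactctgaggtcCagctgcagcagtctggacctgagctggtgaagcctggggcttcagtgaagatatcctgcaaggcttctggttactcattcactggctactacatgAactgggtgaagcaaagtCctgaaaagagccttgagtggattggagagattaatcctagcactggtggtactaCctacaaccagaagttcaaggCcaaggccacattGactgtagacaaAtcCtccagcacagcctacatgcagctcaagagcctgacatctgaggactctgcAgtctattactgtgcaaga

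Ighv1-43: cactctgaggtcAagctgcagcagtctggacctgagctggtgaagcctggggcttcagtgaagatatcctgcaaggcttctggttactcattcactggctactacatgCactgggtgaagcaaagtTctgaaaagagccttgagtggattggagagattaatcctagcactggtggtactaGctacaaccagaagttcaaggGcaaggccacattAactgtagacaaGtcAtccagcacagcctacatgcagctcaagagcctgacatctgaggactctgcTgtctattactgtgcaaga

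Ighv1-42 had 3053 counts in 8-week mouse 3, where Ighv1-43 had 60. In 12-week mouse 2 the order was turned, with 1007 counts on Ighv1-43 and 8 on Ighv1-42. Ighv1-43 was picked for description after its values were seen.

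Ighv11-2, a segment known from the antibodies of B-1 cells, the innate-like B cells of the body cavities, had reads in all 3 of the 4-week mice and held most of the reads of 6-week mouse 1. The last 300 bases of its V exon (chr12:114048241-114048540, GRCm38, minus strand) follow, and the capitals mark its last TGT, the codon of the conserved cysteine that ends the V domain framework before the junction with D.

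Ighv11-2: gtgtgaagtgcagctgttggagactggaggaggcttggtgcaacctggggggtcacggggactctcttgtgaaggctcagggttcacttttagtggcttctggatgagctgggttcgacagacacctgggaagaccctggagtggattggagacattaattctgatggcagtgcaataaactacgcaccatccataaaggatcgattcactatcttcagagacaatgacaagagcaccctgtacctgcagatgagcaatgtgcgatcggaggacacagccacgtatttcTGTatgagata

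The 3 letters TGT, read on the transcript strand alone and matched anywhere in the last 15 bases, were present in 83.6% of the 183 V exons compared, in 108 of the 113 functional ones and in 45 of the 70 pseudogenes.

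Total counts per library ran from 25407492 to 41616275 with a median of 28004882, so 3 counts, taken as the floor of detection, stood for 0.0754 to 0.128 CPM (CPM being counts relative to the TMM-scaled library size). Intervals treat each read as an independent draw and do not cover differences between mice. PCR copies are not independent molecules, so the intervals can be too narrow even for counting error. A pair of libraries stood apart by intestinal genes. The intestinal alkaline phosphatase gene Alpi had 461 counts in 6-week mouse 2 and 3623 in 12-week mouse 1 and 0 in the other 13, so the summed levels, segments detected, shares of the 5 leaders and calls are also given without them.

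Ighv reads were scarce at 4 weeks and abundant from 8 weeks. At 4 weeks the 3 mice had 230, 8 and 33 Ighv counts, and at 6 weeks they had 126, 156 and 920. At 8 weeks the counts were 1495, 6103 and 9162, at 10 weeks 18716, 15197 and 3951, and at 12 weeks 7153, 11766 and 9912. Every mouse of 8 weeks or more lay above every mouse of 4 and 6 weeks, while the mice of 8, 10 and 12 weeks overlapped. The summed Ighv level averaged 3.38 ± 4.55 CPM in the 4-week mice (SD, n = 3 here and at each age) and 15.1 ± 18.3 CPM in the 6-week mice. It averaged 199.8 ± 137.2 CPM in the 8-week, 396.8 ± 273.3 CPM in the 10-week and 312.3 ± 80.8 CPM in the 12-week mice. The 12-week mean was 92.4-fold the 4-week mean, and the largest ratio between successive ages was 13.2, from 6 to 8 weeks. Single mice weighed on these ratios: without 4-week mouse 1 the first was 407-fold, and without 6-week mouse 3 the other was 43.9. Without 12-week mouse 1 the 12-week mean was 352.5 CPM, and without 6-week mouse 2 the 6-week mean was 20.6 CPM. These sums are a description and carry no test.

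**Figure D1:**
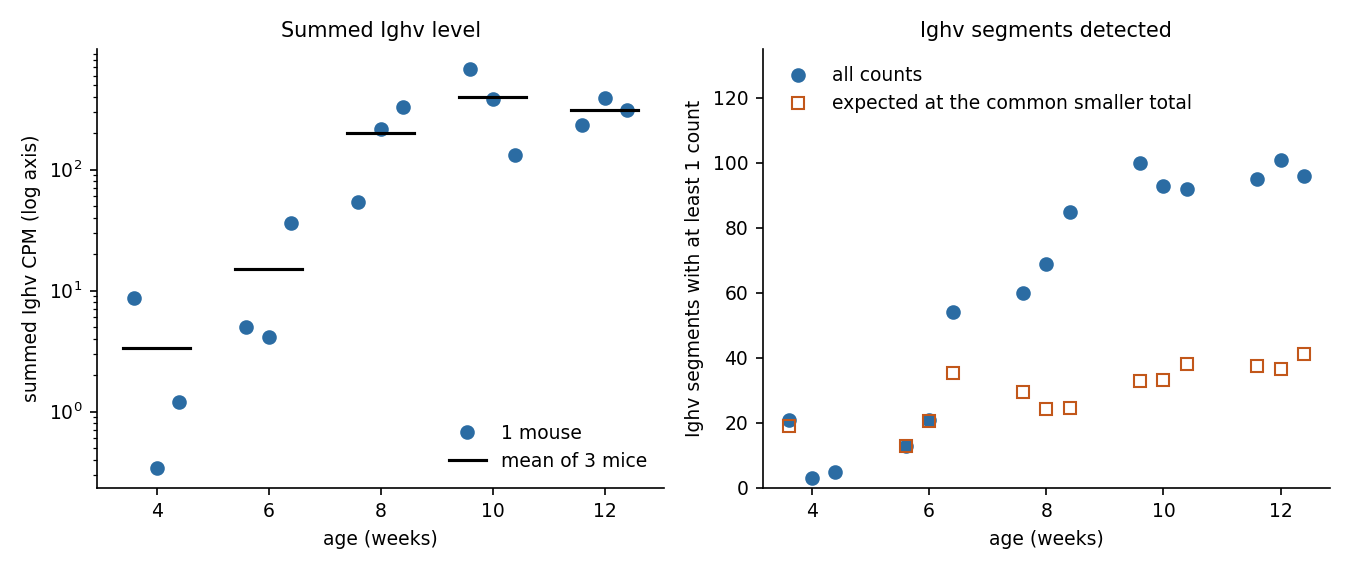
Left, summed Ighv CPM of each mouse (points, log axis) with the mean of 3 mice (lines) against age in weeks. Right, segments with at least 1 count in all counts of the mouse (circles) and expected in 126 counts (squares; 4-week mice 2 and 3 have fewer). The 12-week mice lie between 231.8 and 393.4 CPM and between 95 and 101 segments.

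More segments were seen as the reads grew. The mice had 21, 3 and 5 segments with a count at 4 weeks, 13, 21 and 54 at 6, 60, 69 and 85 at 8, 100, 93 and 92 at 10, and 95, 101 and 96 at 12. The 8-week mice lay below all mice of 10 and 12 weeks. Brought to a common 3951 counts, 8-week mice 2 and 3 would show 65.1 and 76.2 segments, against 84.2 to 92.0 at 10 weeks and 88.4 to 92.1 at 12 weeks, so the gap did not close at equal depth. At 126 counts, a depth chosen after the data were seen, the expected number was 24.3 to 29.5 at 8 weeks, 32.8 to 38.1 at 10 and 36.5 to 41.3 at 12, and 6-week mouse 3 stood at 35.4. Of the segments, 26 were seen in any 4-week mouse, 61 in any 6-week mouse and 116 in any mouse of 10 or 12 weeks, and 84 in all 6 of the latter.

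The 8-week mice spread their Ighv reads over few segments, and the 12-week mice over many. The 5 leading segments held 62.5%, 65.3% and 68.8% of the Ighv counts at 8 weeks, 50.4%, 52.6% and 43.4% at 10 weeks and 43.1%, 43.9% and 35.1% at 12 weeks. The 8-week and 12-week mice did not overlap, and the 95% Wilson intervals ran from 60.0 to 64.9% for 8-week mouse 1 and from 43.0 to 44.8% for 12-week mouse 2. The effective number of segments, which is the inverse of the summed squared shares and equals the number of segments when all are equal, was 9.90, 8.22 and 6.26 at 8 weeks, 11.8, 11.1 and 18.5 at 10 weeks and 19.2, 18.2 and 24.2 at 12 weeks. 8-week mouse 3 and 12-week mouse 3 had similar Ighv totals, 9162 and 9912, and effective numbers of 6.26 and 24.2. At 6 weeks the 3 mice stood apart from each other, with effective numbers of 1.95, 12.2 and 18.4, and the 4-week values of 8.19, 2.13 and 3.25 rest on 230 counts or fewer. Leaving out 12-week mouse 1, which carried intestinal genes, the 12-week means were 98.5 segments detected and 39.5% on the 5 leaders, against 97.3 and 40.7% with it. Leaving out 6-week mouse 2, the other such library, the 6-week means were 33.5 and 68.0%, against 29.3 and 62.2%.

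**Figure D2:**
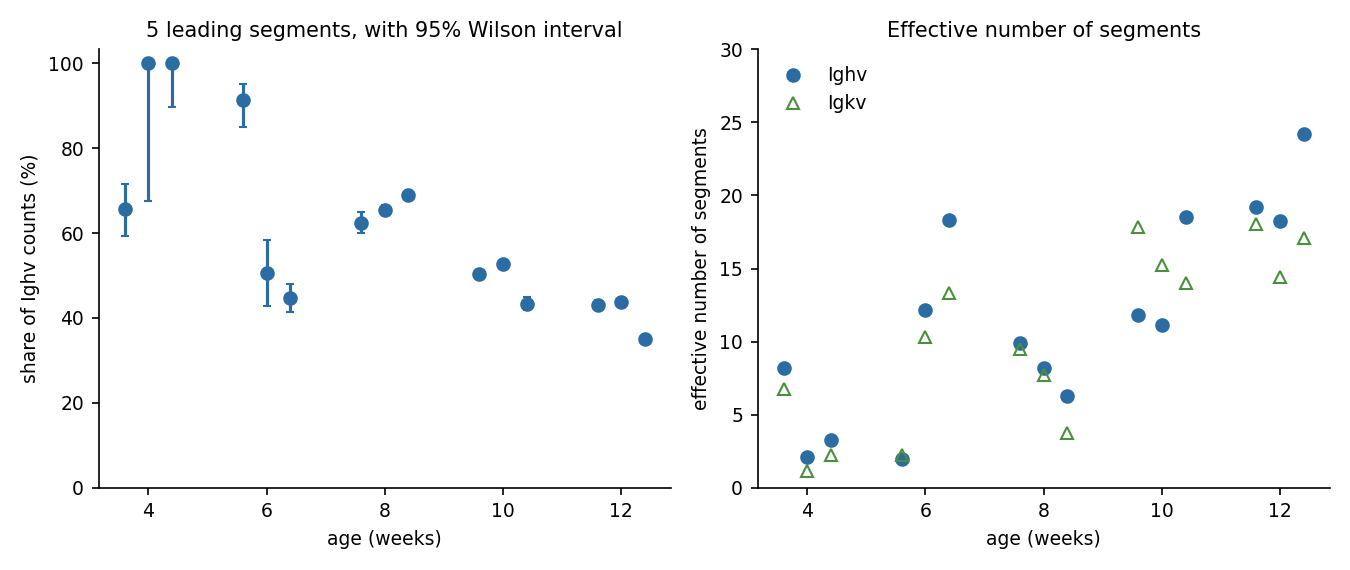
Left, share of Ighv counts on the 5 leading segments of each mouse, in percent, with 95% Wilson intervals, against age in weeks. Right, effective number of Ighv segments (circles) and of kappa light-chain Igkv segments (triangles). The 3 mice of 8 weeks lie at 62.5 to 68.8% on the left, above those of 12 weeks at 35.1 to 43.9%.

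The kappa light-chain V segments, which are joined at another locus of the same cells, gave effective numbers of 9.46, 7.75 and 3.78 at 8 weeks and 18.0, 14.4 and 17.1 at 12 weeks. The 8-week mice again lay below the 12-week mice. These heavy- and light-chain values come from the same libraries and are not independent of each other.

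The leading segment differed from mouse to mouse. At 4 weeks it was Ighv1-5 in mouse 1 (54 of 230 counts, 23.5%, 95% interval 18.5 to 29.4%), Ighv11-2 in mouse 2 (5 of 8) and Ighv5-16 in mouse 3 (15 of 33). At 6 weeks Ighv11-2 held 89 of 126 counts in mouse 1 (70.6%, 62.2 to 77.9%), Ighv1-26 held 19.9% in mouse 2 and Ighv1-9 11.8% in mouse 3. At 8 weeks Ighv1-82 led mouse 1 with 23.9%, Ighv4-1 mouse 2 with 25.2% and Ighv1-42 mouse 3 with 33.3% (32.4 to 34.3%). At 10 weeks the leaders were Ighv2-2 with 23.5%, Ighv4-1 with 21.0% and Ighv1-26 with 14.5%, and at 12 weeks Ighv4-1 with 11.6%, Ighv1-81 with 14.1% and Ighv1-11 with 11.3%. By counts no 2 mice of the same age shared their leader, while by the deposited TPM, which allow for length, Ighv1-81 led both 12-week mouse 1 and mouse 2.

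Across the 6 mice of 10 and 12 weeks, 19 different segments appeared among the 5 leaders of a mouse, Ighv1-26 in 4 mice and Ighv1-11, Ighv3-6 and Ighv4-1 in 3 each. Ighv4-1 shows the spread between mice well. It had 0 counts in every 4-week mouse and 1, 0 and 0 at 6 weeks, then 141, 1538 and 1654 at 8 weeks, 18, 3186 and 103 at 10 weeks and 828, 174 and 797 at 12 weeks. Ighv2-2 had 4397 of its 5671 counts in 10-week mouse 1, and Ighv1-55 had 2615 of 3557 in 10-week mouse 2. Ighv1-26 was spread more evenly, with 748, 644 and 574 counts at 10 weeks and 331, 1116 and 536 at 12 weeks. Of the 75 segments with at least 100 counts, 21 had most of their counts in 1 mouse, and the share of the leading mouse ranged from 19.3% to 90.6% with a median of 39.9%. The 90.6% belonged to Ighv1-63, with 653 of 721 counts in 10-week mouse 1.

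**Figure D3:**
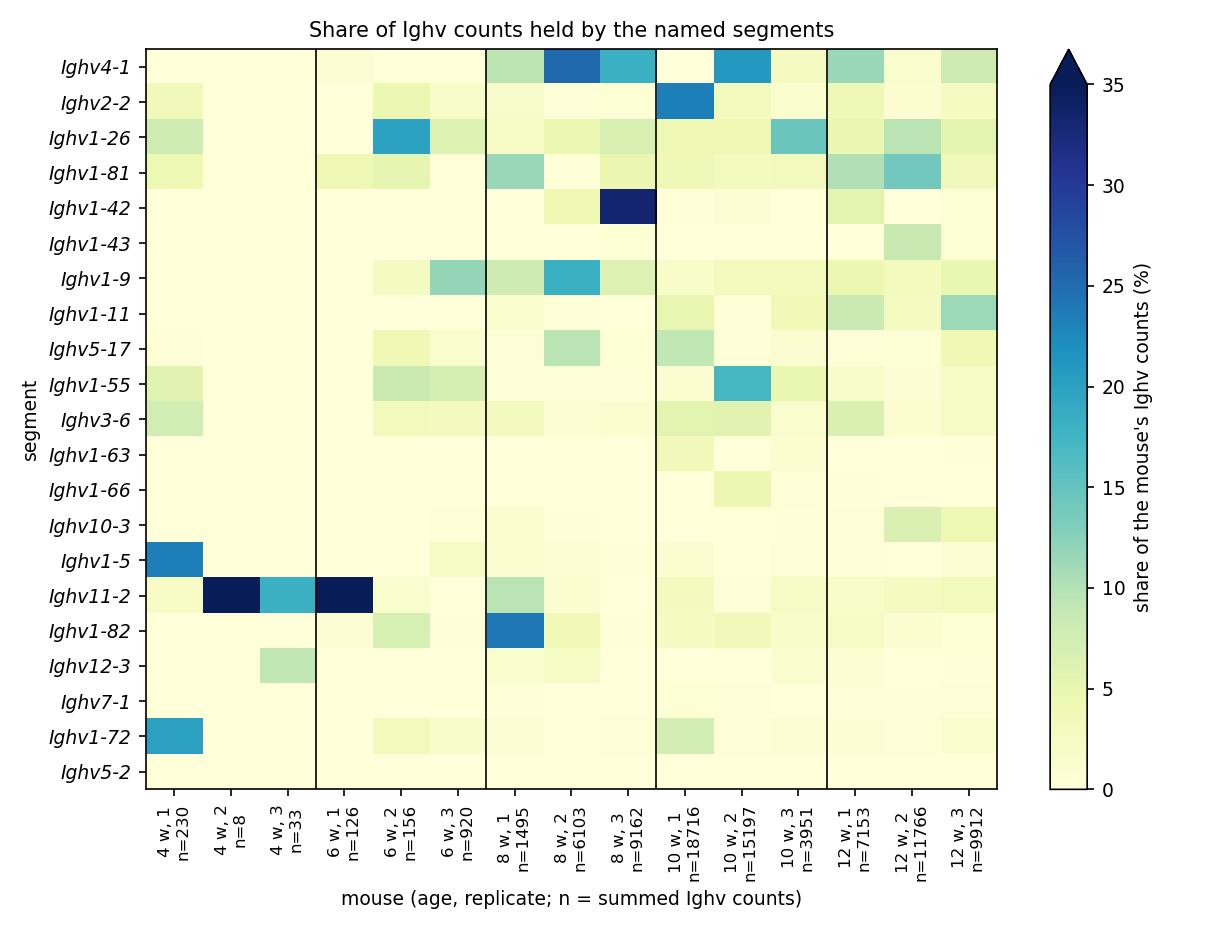
Share of each mouse's Ighv counts, in percent (colour, values over 35% share the darkest colour), held by 21 segments (rows) in the 15 mice (columns, with their summed Ighv counts). Dark cells fall in different rows from mouse to mouse, such as Ighv1-42 in 8-week mouse 3 and Ighv2-2 in 10-week mouse 1.

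The variation between mice of the same age was large for these genes. The biological coefficient of variation estimated by edgeR had a median of 1.08 over the 76 tested Ighv segments, 1.12 over the 7 tested Igh constant-region genes, 0.970 over 8 T-cell genes, 0.968 over the Igkv segments, 0.493 over 12 B-cell lineage genes and 0.133 over all genes tested, or 0.215 over genes in the same range of abundance. Between pairs of the 8 mice with the most Ighv reads, the Spearman correlation of segment shares ran from 0.44 to 0.74 over 28 pairs, as a description across segments. Family 1, the largest, took 55.1% of the counts and is 46.9% of the functional segments, while family 4, with Ighv4-1 as its only functional segment, took 9.94%. Family 1 held 45.1 to 65.2% in the 6 mice of 10 and 12 weeks, and family 4 0.102 to 21.0%.

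The position in the locus gave no fixed order. Splitting the 113 functional segments by distance from the D segments, the 38 nearest held 18.2 to 45.6% of the counts in the 6 mice of 10 and 12 weeks, the 38 in the middle 22.5 to 41.0% and the 37 farthest 25.6 to 40.9%, so the ranges overlapped. Ighv5-2, the functional segment nearest the D segments and known for its frequent use in early B-cell precursors, had 0 to 9 counts a mouse. Of 6 genes of V(D)J recombination and B-cell precursors 1 was tested, Dntt, which encodes the enzyme that adds bases at the junctions. It had 2, 0 and 0 counts at 4 weeks and 40, 9 and 39 at 12, and rose by 4.98 ± 1.34 on the log2 scale (edgeR adjusted p = 0.00758). The recombinase gene Rag1 had 0 to 2 counts a mouse, Vpreb1 0 to 9 and Igll1 0 to 1, and Rag2 and Vpreb2 were at 0 in all 15.

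From 4 to 12 weeks, 60 of the 76 tested segments rose and 0 fell at an adjusted p under 0.05 in edgeR's quasi-likelihood test, where 26.3% of all 16554 genes tested rose and 27.2% fell. In 72 segments the 3 mice of 12 weeks all lay above the 3 of 4 weeks, against 30.3% of all genes. Of the 76, 50 had 0 counts in every 4-week mouse and passed the filter through the older mice alone. The other segments also leaned on older mice. With the filter applied to the 4-week mice and those of the next age alone, 1 segment was tested. Nearly all of the 76 were thus selected by their reads at later ages, which favours a rise from 4 weeks. The numbers of segments that rose or did not overlap therefore do not bear on all 185 genes. The median log2 fold change of the 76 was 7.48 as fitted and 4.24 with the segments at 0 set to their lower bound, against −0.05 over all genes.

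Ighv1-11, with 0 counts in every 4-week mouse and 588, 298 and 1119 at 12 weeks, was at least 184-fold higher at 12 weeks, taking 3 counts per library as the floor (edgeR adjusted p = 0.00139). Ighv10-3 was at least 117-fold higher, on 30, 787 and 432 counts against 0 in all 4-week mice (edgeR adjusted p = 0.000896). Ighv4-1 was at least 165-fold higher (edgeR adjusted p = 0.00991), and Ighv1-9, with 315, 343 and 467 counts at 12 weeks, at least 104-fold higher (edgeR adjusted p = 0.00341). All 4 were at 0 in every 4-week mouse, so that their groups did not overlap.

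Among segments already read at 4 weeks, Ighv1-26 rose by 6.53 ± 1.36 on the log2 scale (SE, edgeR adjusted p = 0.00181), from 18, 0 and 0 counts to 331, 1116 and 536. Ighv1-81 rose by 7.82 ± 1.43 (edgeR adjusted p = 0.000907), from 10, 0 and 0 counts to 714, 1656 and 352. Ighv3-6 rose by 5.28 ± 1.35 (edgeR adjusted p = 0.00592), with 17, 0 and 0 counts at 4 weeks and 462, 120 and 215 at 12. In these 3 segments all 4-week reads came from mouse 1. Without it the 4-week group is at 0, and the fitted values were 12.32 for Ighv1-26, 12.78 for Ighv1-81 and 10.98 for Ighv3-6, which are no bounds, and all 3 stayed called.

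Other segments gave a mixed picture. Ighv2-2 rose by 6.00 ± 1.80 (edgeR adjusted p = 0.0139), Ighv1-55 by 4.76 ± 1.48 (0.0167) and Ighv5-17 by 8.28 ± 3.03 (0.0351), and Ighv1-82, at 0 in all 4-week mice, was at least 30.1-fold higher (0.00412). Without 4-week mouse 1 the fitted value was 10.65 for Ighv2-2 and 10.09 for Ighv1-55. The Ighv2-2 call was lost without 4-week mouse 3 (adjusted p = 0.0543), the Ighv1-55 call without 4-week mouse 2 (0.0583) or 3 (0.0628), and that of Ighv5-17 without any 1 of the 4-week mice (0.0885 to 0.0974) or without 12-week mouse 3 (0.108). Ighv1-42 (adjusted p = 0.0829), Ighv1-63 (0.225) and Ighv1-66 (0.0979) did not pass, and neither did Ighv1-72 (0.306), which had 46, 0 and 0 counts at 4 weeks and 50, 35 and 141 at 12.

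Ighv11-2 had 5, 5 and 6 counts at 4 weeks, 89, 2 and 0 at 6, 142, 60 and 1 at 8, 521, 48 and 88 at 10 and 126, 308 and 313 at 12, so it was the named segment read in all 4-week mice. It rose by 5.26 ± 1.74 on the log2 scale from 4 to 12 weeks (edgeR adjusted p = 0.0219), which was lost without any 1 of the 4-week mice (0.0656 to 0.0690). Ighv12-3, which with Ighv11-2 is known from B-1 antibodies to phosphatidylcholine, had 0, 0 and 3 counts at 4 weeks and 49, 11 and 24 at 12 (4.42 ± 1.59, adjusted p = 0.0370), and its call was lost without either 12-week mouse 1 (0.103) or 3 (0.0575) or any 4-week mouse (0.0535 to 0.0985), and without both libraries with intestinal genes (0.106). Ighv7-1, known from antibodies to phosphorylcholine, was at 0 at 4 weeks and had 27, 26 and 35 counts at 12, at least 8.15-fold higher (edgeR adjusted p = 0.0130). Ighv1-72, known from antibodies to the nitrophenyl haptens, had 1376 of its 1802 counts in 10-week mouse 1. Ighv1-5, which led 4-week mouse 1 with 54 counts, had 26, 14 and 80 at 12 weeks and did not pass (0.91 ± 1.55, edgeR adjusted p = 0.643), and its sign turned without 12-week mouse 3 (−0.05).

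Between successive ages the test called few segments. From 4 to 6 weeks 0 of 76 passed in edgeR, against 0.0906% of all genes, and 4 had an unadjusted p under 0.05, against 8.67%. DESeq2 called 2, against 1.5% of all genes. From 6 to 8 weeks 0 passed in edgeR's quasi-likelihood test, against 0% of all genes, and 25 were higher at an unadjusted p under 0.05, against 10.9%. The edgeR exact test called 5 of the 22 segments it tested, against 1.03% of all genes, and DESeq2 called 17, against 3.28%. Without 8-week mouse 1 the quasi-likelihood test called 11 of 80, against 797 of 16870 genes. From 10 to 12 weeks 0 passed in edgeR, against 0% of all genes, or in DESeq2, against 0.0725%, and 14 had an unadjusted edgeR p under 0.05, with 7 higher and 7 lower, against 7.52% of all genes.

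From 8 to 10 weeks 10 segments rose and 0 fell in edgeR's quasi-likelihood test, where 8.4% of all genes rose and 8.37% fell. Ighv1-55 rose by 5.77 ± 1.34 on the log2 scale (edgeR adjusted p = 0.0265), from 8, 9 and 23 counts to 195, 2615 and 185. Ighv1-66 went from 0, 1 and 4 counts to 24, 672 and 18 (6.59 ± 1.60, edgeR adjusted p = 0.0328), and Ighv1-63 from 0, 1 and 0 to 653, 11 and 34 (edgeR adjusted p = 0.0349). The groups of these 3 did not overlap, but most of the 10-week reads of each came from 1 mouse. The count of 10 became 0 without 8-week mouse 1 or 2 or 10-week mouse 1 or 2, where 0 of all genes were called. It was 22 of 80 without 10-week mouse 3, where 5612 of all 16868 genes were called in either direction. It was 0 also when the 2 ages were fitted alone, against 0 of 15894 genes.

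Tested for a difference among all 5 ages at once, edgeR called 63 of the 76 segments, against 56% of all genes. Without both libraries with intestinal genes, edgeR called 0 segments from 4 to 6, 6 to 8 or 10 to 12 weeks, and 0 of all genes. In these contrasts 12, 20 and 12 segments had an unadjusted p under 0.05, a rule whose share of all genes was not taken in this fit. From 8 to 10 weeks 7 of 79 segments were called, against 1144 of 16710 genes in either direction. In that fit 54 of 79 tested segments rose from 4 to 12 weeks, against 7943 of 16710 genes called in either direction. For a difference among the 5 ages 47 of 79 passed, against 7532 of 16710 genes.

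Ighv reads moved with those of the constant regions to which the segments are spliced. The summed Ighv CPM was 0.230 to 0.286 of the summed constant-region CPM in the 12 mice of 6 weeks or more, with 0.240, 0.0784 and 0.206 at 4 weeks, where 4-week mouse 2 rests on 8 Ighv counts. These are ratios of read counts, not of molecules, since the constant regions are longer. IgM and IgD made up 90.5, 43.6 and 51.3% of constant-region counts in the 6-week mice, 83.8, 70.0 and 93.7% in those of 8 weeks, 57.7, 71.4 and 78.6% in those of 10 weeks and 77.0, 80.8 and 73.5% in those of 12 weeks. IgA, the class of mucosal antibodies, was 16.8, 0 and 0% at 4 weeks and 6.02, 34.3 and 27.6% at 6 weeks. It was 11.4, 3.78 and 4.18% at 8 weeks, 5.06, 6.14 and 6.35% at 10 weeks and 7.80, 4.30 and 5.48% at 12 weeks. The libraries with intestinal genes are 6-week mouse 2, with 34.3%, and 12-week mouse 1, with 7.80%, and Alpi was at 0 in the others. The source of the IgA reads was not tested.

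**Figure D4:**
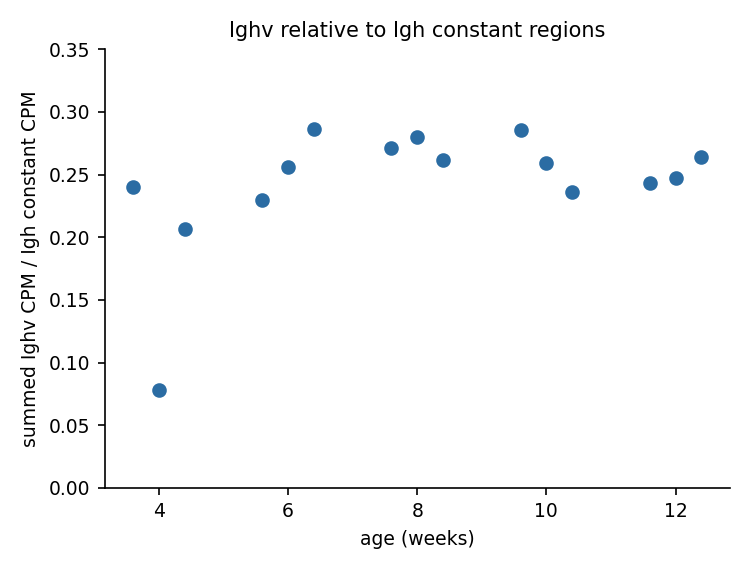
Summed Ighv CPM over summed Igh constant-region CPM against age in weeks, with 1 point for each of the 15 mice. The ratio lies between 0.230 and 0.286 from 6 weeks, and the lowest point, 0.0784, is 4-week mouse 2.

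From 8 to 10 weeks 11 of 12 B-cell lineage genes rose in edgeR, against 8.4% of all genes, among them Ms4a1, which encodes the surface protein CD20 (2.14 ± 0.59 on the log2 scale, adjusted p = 0.0338), and Cd79a, a signalling chain of the B-cell receptor (1.84 ± 0.39, 0.0237). The count was 0 without 8-week mouse 1 or 2 or 10-week mouse 1 or 2, where 0 of all genes were called. Of the 9 tested plasma-cell genes 0 rose over the same interval and 1 fell, against 8.4% and 8.37% of all genes. Jchain gave 0.78 ± 0.87 (edgeR adjusted p = 0.528). From 4 to 12 weeks all 12 B-cell lineage genes rose, where 26.3% of all genes rose and 27.2% fell. Of the 9 plasma-cell genes 5 rose and 4 fell, with Jchain at 6.37 ± 1.15 (edgeR adjusted p = 0.000848). Xbp1, a gene of this list that islet endocrine cells also express, had 6098 to 10640 counts in every mouse. Ell2, Fkbp11 and Derl3 of this list had 1600 to 1817, 1187 to 1763 and 546 to 807 counts at 4 weeks, where Jchain had 145, 7 and 24. Mzb1 went from 27, 10 and 6 counts at 4 weeks to 572, 851 and 647 at 12. Which cells these reads came from was not tested.

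Other immune, stromal and endocrine genes changed over the same ages, and their part in the result was not tested. From 4 to 12 weeks 26.3% of all genes rose and 27.2% fell in edgeR, the shares against which the counts below stand. All 8 T-cell genes rose, and their summed level was 2.93 to 35.5 CPM at 4 weeks and 345.6 to 469.3 at 12. Of the 7 tested lymph node stroma genes 6 rose, with a summed level of 213.2 to 292.2 CPM at 4 weeks and 769.3 to 897.0 at 12. A single gene, Enpp2, held 7221, 4657 and 5555 of the 7808, 5153 and 5893 counts of this list at 4 weeks. At 12 weeks it held 13296, 10851 and 11932 of 23735, 26832 and 26554, so the sums say little of the other genes. Glycam1, a mucin of the high endothelial venules of lymph nodes, had 0 or 1 counts in the 4-week mice and 5202, 8094 and 7337 at 12 weeks. All 7 tested myeloid genes rose, with a summed level of 36.8 to 164.1 CPM at 4 weeks and 1018 to 1109 at 12. Of 8 islet endocrine genes 7 fell, with a summed level of 292360 to 326489 CPM at 4 weeks and 141556 to 181836 at 12. The 10 intestinal genes summed to 69.8 to 77.4 CPM at 4 weeks and to 402.0, 47.2 and 37.5 CPM at 12 weeks, with the high value in 12-week mouse 1. Most of the 4-week sum was Vil1, with 1776, 1506 and 2005 of 1866, 1633 and 2139 counts, against 2567 of 12404 in 12-week mouse 1.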

How the data were processed

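Islet RNA of 15 NOD females was sequenced as 150-base read pairs. Per the study's methods the authors trimmed, aligned and counted reads in CLC Genomics Workbench with default settings, and the submitters' processing notes name mm10. Raw counts per gene and TPM were used as deposited by the authors, and 30 further per-sample columns (RPKM and CPM) were not used. The strand setting and the treatment of multiply mapped reads are not given in the sources used here.

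Samples were grouped by the age in their labels. Counts were scaled by TMM, filtered by filterByExpr over the 5 ages and fitted by edgeR 4.0.16 (R 4.3.3) with 1 mean per age, the quasi-likelihood test and Benjamini-Hochberg adjustment over all 16554 genes, called at adjusted p under 0.05. DESeq2 1.42.0, the edgeR exact test, other scalings, no filter, 2 ages alone, each mouse left out and a replicate block were alternatives. The fit was tested on simulated data with far smaller changes than those of most segments, in genes drawn at random. That test does not bear on segments at 0 in all mice of an age. Total counts ran from 25407492 to 41616275 per library, and 0 of the 15 replicate pairs were identical and all differed by more than sampling noise (chi-square over its degrees of freedom, 15.9 to 127.3). The labels give an age, a replicate number and a code. That each library is a separate mouse was inferred from the number of mice per age in the study's methods.

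Sums, detection and concentration have no test. Segments were named by rule: the 10 with the highest mean CPM, the 3 largest changes per contrast among called segments without overlap, the leader of each mouse with at least 100 Ighv counts, and 5 segments known from textbooks. Leaders of thinner mice, and Ighv1-43, were named after their values were seen. The segments, gene lists and rules were chosen with earlier results of these data known. Sequences, coordinates and gene classes are from GENCODE M21 (GRCm38), whose coordinates matched all 185 genes. A gene of the B-cell lineage list is counted in that list but not reported here by name.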

Additional observations from a re-analysis of the deposited data

How the results depend on the processing

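Of the segments called from 4 to 12 weeks, the count stayed between 42 of 80 tested and 53 of 79 with each mouse left out. Under the other alternatives it ran from 51 of 53, with the exact test or 2 ages alone, to 69 of 120 with no filter, and 0 fell in any of them. Of all genes, 7236 of 16862 were called in either direction without 4-week mouse 3. The exact test called 7909 of 16002 genes and the fit with no filter 8666 of 22813. For any change over 5 ages the count was 55 of 78 to 66 of 80 with a mouse left out, and otherwise 45 of 76 to 71 of 120. Of all genes, 8714 of 16864 were called without 10-week mouse 1, 8217 of 16554 with the block and 8747 of 22813 with no filter. The 8 to 10 week result was the least stable: 0 segments with a replicate block, 0 with only these ages, and 0 to 22 with a mouse left out. Of all genes the block and these ages alone also called 0, and leaving out a mouse 0 to 5612. From 6 to 8 weeks the exact test called 5, DESeq2 17, and leaving out a mouse 0 to 11, where all genes gave 160, 543 and 0 to 797. From 4 to 6 weeks DESeq2 called 2, against 249 of all genes, and leaving out a mouse 0, against 0 to 6. From 10 to 12 weeks every alternative called 0 segments, and at most 12 of all genes. The cause was not tested.

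Over the listed genes from 8 to 10 weeks, the B-cell lineage count of 11 became 0 with the block or with 2 ages alone, and 0 to 11 with a mouse left out. The plasma-cell count of 1 became 0 with DESeq2 size factors, library totals, no filter, the block, 2 ages or the exact test, and 0 to 3 with a mouse left out. The constant-region count of 1 became 0 with the block or 2 ages, and 0 to 2 with a mouse left out. From 8 to 10 weeks the block and the 2 ages alone called 0 of all genes, and leaving out a mouse 0 to 5612. From 4 to 12 weeks leaving out a mouse gave 12 B-cell lineage genes, all 10 plasma-cell genes then tested, a gene more than with all mice, and 6 to 7 constant-region genes, counted in either direction.

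Segments detected depended on the minimum: with at least 4 counts the means at 8, 10 and 12 weeks were 52.0, 78.0 and 82.0, with at least 10 counts 35.3, 65.0 and 68.7, at 3951 counts 87.4 and 90.1 for 10 and 12 weeks, and at 126 counts 26.2, 34.6 and 38.4. Without the leading segment of each mouse the 5 leaders held 58.2% at 8 weeks and 41.6% at 10 weeks. With a mouse left out, the 4-week mean was 0.768 to 4.90 summed CPM, 4 to 13 segments detected and 82.8 to 100% of counts on the 5 leaders. For 6 weeks these ranges were 4.55 to 20.6 CPM, 17 to 37.5 segments and 47.7 to 71.0%, and for 8 weeks 136.1 to 272.4 CPM, 64.5 to 77 segments and 63.9 to 67.1%. The 10-week mice gave 256.5 to 529.5 CPM, 92.5 to 96.5 segments and 46.9 to 51.5%, and the 12-week mice 271.7 to 352.5 CPM, 95.5 to 98.5 segments and 39.1 to 43.5%.

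For 19 named segments from 4 to 12 weeks, 237 of 257 alternative values kept side and direction, 18 lost the call, 1 gained it, and 1 turned sign: Ighv1-5, at -0.051 without 12-week mouse 3 and 8.24 without 4-week mouse 1. Deviations from the age means correlated over 0.1 in 7 of 30 same-numbered pairs of mice (range −0.64 to 0.51). Among pairs with different numbers it was 27 of 60 (−0.58 to 0.55). Since the deviations of the mice of an age sum to 0, these values cannot settle whether the numbers mark a batch. The block left 53 segments called from 4 to 12 weeks and 45 for any change. With it the edgeR adjusted p from 4 to 12 weeks was 0.0609 for Ighv5-17 and 0.0605 for Ighv12-3. At 4 weeks 8 to 230 Ighv counts a mouse limit what could be seen, and a segment at 0 could hold up to 37.5% of the Ighv reads of 4-week mouse 2.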
